A study of Mus musculus with 28 samples.

Results

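The Notch receptors and Notch target genes studied here are 8 genes: the receptors Notch1 and Notch3, the DNA-binding partner Rbpj, and the targets Hes1, Dtx1, Nrarp, Heyl and Trib2. They were found by their symbols in a table of read counts, which holds 24421 symbols, and all 8 passed the filter on low counts. RNA was sequenced from mouse thymocytes of 3 genotypes at the stages DN4 and DN2/3, double-negative stages defined by the lack of CD4 and CD8. The Ldb1-KO group, labelled Lmo2tg; Ldb1-KO, has Ldb1 deleted on top of the Lmo2 transgene, the Lmo2tg group has the transgene alone, and the wild type (C57BL/6) has neither, so both transgenic groups share the transgene. Each stage had 5 Ldb1-KO, 5 Lmo2tg and 4 wild-type libraries, 28 in all. For the whole study the labels name C57BL/B6:CD45.1 congenic, Lmo2-tg and Ldb1flox/flox mice, a Rosa26-EYFP reporter, and the Cre lines Lck-Cre, Rag1-Cre and IL-7Ra-Cre. The sources used here do not tell which Cre line the Ldb1-KO samples carry, which promoter drives the transgene or how old the mice were. Nothing in them says that replicates are separate animals, so p-values measure the spread between these libraries, which may in part be technical. Sex transcripts, given below, differed between replicates of each genotype, so not all replicates of a group came from the same animal.

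Notch receptors are cut when a ligand on a neighbouring cell, in the thymus mainly Delta-like 4 on epithelial cells, pulls on them. The freed intracellular part enters the nucleus, joins Rbpj and Mastermind coactivators on DNA and switches on target genes. In early thymocytes this signal commits cells to the T lineage and carries them to the pre-T-cell-receptor checkpoint, after which it normally falls. Activating changes of Notch1 are common in T-cell leukemia, and the adaptor Lmo2, which works in a DNA-bound complex with Ldb1, E-box factors and GATA factors, is another T-cell oncogene.

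Totals ran from 28.1 to 106.9 M counts per library. Lmo2 averaged 45.4 ± 6.66, 45.1 ± 13.5 and 0.0778 ± 0.0708 CPM in Ldb1-KO, Lmo2tg and wild type at DN4, and 30.5 ± 7.43, 32.6 ± 3.8 and 0.272 ± 0.105 CPM at DN2/3 (SD, n = 5, 5 and 4). CPM are counts per M counts of a library, with the library size scaled by TMM. Ldb1 was lowered in Ldb1-KO and not lost, with 25.7 ± 19.3 CPM against 345 ± 72.2 CPM in Lmo2tg at DN4, and 98.1 ± 26.9 CPM against 397 ± 58.0 CPM at DN2/3 (log2 -3.75, adjusted p = 1.53e-07, and -2.02, adjusted p = 0.000103). A cell type label of CD4 T cells stands beside the stage. The defining DN2/3 marker Il2ra (CD25) was at 25.1 to 131 CPM in the 14 DN4 libraries and at 606 to 1950 CPM in the 14 DN2/3 libraries. Within DN2/3 it was at 1053 to 1950 CPM in Ldb1-KO, 606 to 1000 CPM in Lmo2tg and 1357 to 1654 CPM in wild type. The DN2/3 libraries of Lmo2tg thus lay below those of both other genotypes in this marker, and the part of this in the results was not tested. Cd4 and Cd8a stood apart in Ldb1-KO DN4 replicate 2 (329 and 713 CPM) and Lmo2tg DN4 replicate 1 (422 and 742 CPM). The 8 double-positive markers summed to 3233 and 3284 CPM there, against 1198 to 1742 CPM in the other DN4 libraries of these genotypes. In wild type DN4 this sum was 1282 to 1428 CPM. Cd8a was still at 136 to 345 CPM in those other transgenic DN4 libraries, against 19.7 to 57.5 CPM in wild type. Cd4 was at 13.4 to 97.8 CPM in them, against 4.08 to 11.97 CPM in wild type. At DN2/3 Cd8a was at 23.6 to 92.7 CPM in transgenic libraries, against 0.473 to 1.26 CPM in wild type. Leaving out the 2 libraries thus keeps the Cd8a difference from wild type. Summed markers of mature T cells (7 genes) were at 614 to 897 CPM in Ldb1-KO DN4, 759 to 2167 CPM in Lmo2tg DN4 and 283 to 406 CPM in wild type DN4. The part of these cell types in the results below was not tested, and each count of members that uses a DN4 group is also given without the 2 libraries. The 8 markers of thymic stroma, whose epithelium carries Notch ligands, summed to 116.2 to 152.8 CPM in Ldb1-KO DN4, 110.2 to 216.9 CPM in Lmo2tg DN4 and 86.6 to 120.5 CPM in wild type DN4. At DN2/3 they summed to 199.7 to 289.3 CPM in Ldb1-KO, 152.3 to 269 CPM in Lmo2tg and 196.2 to 217.8 CPM in wild type. Most of each sum was the endothelial and leukocyte marker Pecam1 (group means 88.7 to 197 CPM) and the epithelial marker Epcam. Epcam averaged 53.4 ± 8.99 CPM in Ldb1-KO, 18.4 ± 3.52 CPM in Lmo2tg and 58.9 ± 5.80 CPM in wild type at DN2/3, and 16.9 ± 2.13, 10.3 ± 2.38 and 12.8 ± 1.94 CPM at DN4. The defining epithelial markers Foxn1, Psmb11, Krt5 and Krt8 were at most 0.0644, 0.718, 0.772 and 0.772 CPM in any library. The part of stroma in the results was not tested. Of the 4 wild-type replicate numbers, 3 had both the female transcript Xist and the male transcript Ddx3y at both stages, and each transgenic library had only one of them above 3 CPM. In Lmo2tg replicate 2 and Ldb1-KO replicates 4 and 5 this was Xist at both stages, and in the other transgenic libraries it was Ddx3y. The wild-type libraries with both transcripts may thus each hold cells of male and female animals. The part of this in the spread between wild-type libraries, and so in the tests, was not tested.

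Per kilobase of exon, Notch1 was the most abundant member in every group and Heyl the least. On that scale Notch1 ran from 50.2 CPM in Ldb1-KO DN4 to 148 CPM in wild type DN2/3, and Notch3 from 14.6 CPM in wild type DN4 to 106 CPM in wild type DN2/3. On the same scale Hes1 ran from 8.18 to 77.2 CPM, Dtx1 from 3.84 to 41.9, Trib2 from 3.24 to 33.4, Rbpj from 5.19 to 9.34, Nrarp from 2.94 to 4.95 and Heyl from 0.163 to 2.19 CPM. Differences are log2 fold changes from 1 edgeR quasi-likelihood fit of 14371 genes over all 28 libraries, and a gene is called where its Benjamini-Hochberg adjusted p over all genes tested is below 0.05. In these bulk samples fewer cells of a type and less RNA per cell cannot be told apart.

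**Figure D1:**
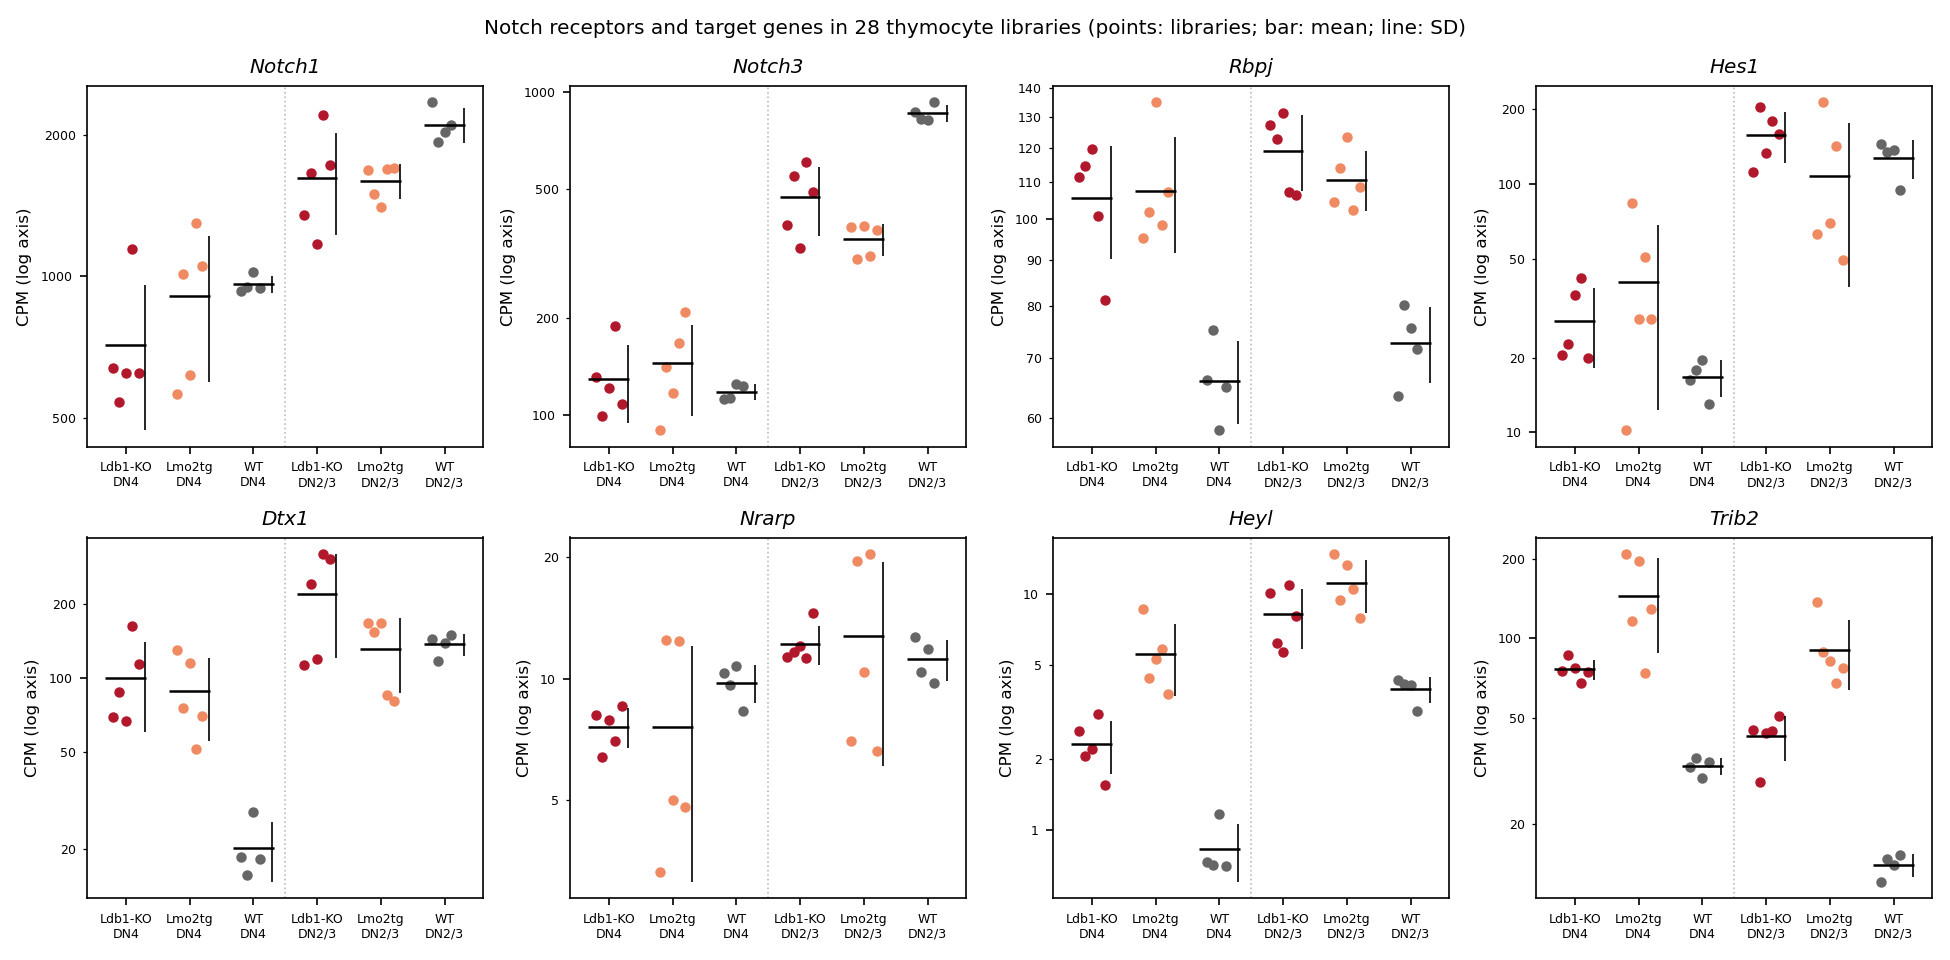
CPM of each member on a log axis, 1 point per library, for the DN4 groups (left of the dotted line) and the DN2/3 groups, each in the order Ldb1-KO, Lmo2tg and wild type (WT). Horizontal bars are group means and vertical lines span 1 SD either side, and the wild-type DN2/3 points of Notch3, from 818 to 930 CPM, lie above all other groups.

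Notch1 encodes the receptor that T-lineage commitment depends on, and its transcript was lower at DN4 than at DN2/3 in every genotype. The gene lies on mm10 chromosome 2, 26457903 to 26516663, minus strand. At DN4 it had 640, 542, 623, 1144 and 623 CPM in Ldb1-KO, 563, 1010, 619, 1297 and 1052 CPM in Lmo2tg, against 933, 950, 1020 and 944 CPM in wild type. At DN2/3 it had 1353, 1655, 1170, 2201 and 1729 CPM in Ldb1-KO, 1681, 1494, 1408, 1692 and 1702 CPM in Lmo2tg, against 2343, 1933, 2028 and 2099 CPM in wild type. No DN4 library reached the DN2/3 libraries of its genotype, and the transgenic DN4 libraries were spread more widely than the wild-type ones. DN4 against DN2/3 was -1.18 (SE 0.20, adjusted p = 0.000118) in Ldb1-KO, -0.81 (SE 0.20, adjusted p = 0.00692) in Lmo2tg and -1.13 (SE 0.23, adjusted p = 0.000303) in wild type. Between genotypes no Notch1 difference passed the test, though without Ldb1-KO DN4 replicate 4 Ldb1-KO was lower at DN4 than Lmo2tg (log2 -0.58, adjusted p = 0.036) and wild type (log2 -0.67, adjusted p = 0.0113). At DN2/3 all 5 Lmo2tg libraries lay below all 4 wild-type libraries, yet the log2 difference of -0.40 had a 95% interval from -0.83 to 0.04 (adjusted p = 0.169). In a fit of those 2 groups alone it was called (adjusted p = 0.0141).

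Notch3, a receptor that immature thymocytes express strongly, was lower in both transgenic groups than in wild type at DN2/3, while at DN4 neither difference passed the test. It had 131, 98.8, 121, 189 and 108 CPM in Ldb1-KO DN4, 89.4, 141, 117, 168 and 208 CPM in Lmo2tg DN4, against 112, 113, 125 and 122 CPM in wild type DN4, so that the 3 genotypes overlapped at that stage. At DN2/3 it had 387, 552, 330, 607 and 491 CPM in Ldb1-KO, 383, 305, 385, 312 and 374 CPM in Lmo2tg, against 867, 824, 818 and 930 CPM in wild type. Every transgenic DN2/3 library lay below every wild-type one. The log2 fold change at DN2/3 was -1.29 in Lmo2tg over wild type (SE 0.20, adjusted p = 1.39e-05) and -0.86 in Ldb1-KO over wild type (SE 0.20, adjusted p = 0.00497). Ldb1-KO over Lmo2tg at DN2/3 was 0.43, with a 95% interval from 0.05 to 0.81, and did not pass the test after adjustment (adjusted p = 0.123). DN4 over DN2/3 was -1.87 in Ldb1-KO (SE 0.19, adjusted p = 1.2e-07), -1.28 in Lmo2tg (SE 0.19, adjusted p = 5.09e-05) and -2.87 in wild type (SE 0.22, adjusted p = 1.02e-09). The effect of Lmo2tg over wild type differed between the stages by 1.58 (SE 0.28, adjusted p = 0.000567), and that of Ldb1-KO over Lmo2tg by -0.59 (adjusted p = 0.365).

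The gene lies on chromosome 17, 32120820 to 32166852, minus strand. The 250 bases before its RefSeq start, chr17:32166891-32167140 of GRCm38.p6 on the minus strand, are shown because Notch3 is the only member called lower in both transgenic groups than in wild type. Capitals here and in the other promoters mark, on either strand, the Rbpj core TGGGAA, the E-box CANNTG and GATA, the letters that Rbpj and the partners of the Lmo2-Ldb1 complex are known to read.
Notch3: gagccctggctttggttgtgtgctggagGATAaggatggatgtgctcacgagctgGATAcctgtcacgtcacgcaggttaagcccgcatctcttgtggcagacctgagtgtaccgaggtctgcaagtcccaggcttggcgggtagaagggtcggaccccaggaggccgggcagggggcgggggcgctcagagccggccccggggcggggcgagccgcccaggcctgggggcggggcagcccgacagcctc
Both matches are GATA and there is no TGGGAA or CANNTG in these bases. Among 27018 RefSeq promoters, 54.1% held GATA, 66.1% CANNTG and 21.5% TGGGAA in the same 250 bases. Of the 8 members, 6 had a promoter in the RefSeq table, and Hes1 and Heyl had none. The promoters of Notch1, Trib2 and Dtx1 are not printed. In their 250 bases, those of Notch1 and Trib2 held no match of any kind, and that of Dtx1 held 1. Whether matches go with the differences between groups was not tested.

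Rbpj, the DNA-binding protein through which all Notch receptors act, was higher in both transgenic groups than in wild type at both stages, and no difference between the 2 transgenic groups passed the test. It had 112, 115, 120, 101 and 81.3 CPM in Ldb1-KO DN4, 95.3, 102, 135, 98.7 and 107.3 CPM in Lmo2tg DN4, against 66.1, 75.2, 58.2 and 65.0 CPM in wild type DN4. The DN2/3 libraries had 127, 123, 131, 107.2 and 106 CPM in Ldb1-KO, 105, 114, 123, 102 and 109 CPM in Lmo2tg, against 63.6, 80.2, 75.7 and 71.8 CPM in wild type. At either stage the lowest transgenic library was above the highest wild-type one. Lmo2tg over wild type was 0.70 at DN4 (SE 0.12, adjusted p = 2.77e-05) and 0.60 at DN2/3 (SE 0.12, adjusted p = 0.000228), and Ldb1-KO over wild type was 0.68 (adjusted p = 0.000193) and 0.71 (adjusted p = 0.000144). Ldb1-KO over Lmo2tg was -0.03 at DN4 (95% interval -0.25 to 0.19, adjusted p = 0.917) and 0.11 at DN2/3 (95% interval -0.11 to 0.33, adjusted p = 0.548). The gene lies on chromosome 5, 53466152 to 53657362, plus strand. A part of the promoter that no annotated exon covers, chr5:53590096-53590213, plus strand, is shown because the target genes are read through this factor.
Rbpj: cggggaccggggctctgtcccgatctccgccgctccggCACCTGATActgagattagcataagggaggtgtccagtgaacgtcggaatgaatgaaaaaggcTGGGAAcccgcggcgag
These 118 bases hold 1 TGGGAA, 1 CANNTG and 1 GATA, of which the last 2 overlap by a base. The full 250 bases before this RefSeq start held 2 TGGGAA, 2 CANNTG and 1 GATA. RefSeq gives another start for Rbpj, whose 250 bases held 1 TGGGAA, 0 CANNTG and 1 GATA. The bases before either start lie inside the gene span given above, not at its edge.

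Hes1 encodes a basic helix-loop-helix repressor and is the classic direct Notch target. It was lower at DN4 than at DN2/3 in each genotype and at DN4 was higher in Lmo2tg than in wild type. It had 20.6, 22.8, 35.8, 41.8 and 19.8 CPM in Ldb1-KO DN4, 10.2, 83.7, 28.6, 50.9 and 28.7 CPM in Lmo2tg DN4, against 16.3, 17.8, 19.6 and 12.97 CPM in wild type DN4. The DN2/3 libraries had 112, 204, 133, 179 and 158 CPM in Ldb1-KO, 62.8, 213, 69.5, 142 and 49.4 CPM in Lmo2tg, against 144, 134, 137 and 94.1 CPM in wild type. The Lmo2tg libraries were the most scattered, and in both stages replicates 2 and 4 were the highest of that genotype. DN4 against DN2/3 was -2.48 in Ldb1-KO (SE 0.41, adjusted p = 8.18e-05), -1.41 in Lmo2tg (SE 0.40, adjusted p = 0.0163) and -2.94 in wild type (SE 0.47, adjusted p = 2.68e-05). The Lmo2tg fall was not called without Lmo2tg DN2/3 replicate 2 (adjusted p = 0.0629). Lmo2tg over wild type at DN4 was 1.28 (SE 0.43, adjusted p = 0.015) with overlapping libraries, and this too was lost without Lmo2tg DN4 replicate 2 (log2 0.83, adjusted p = 0.0836) and in a fit of the 2 groups alone (adjusted p = 0.0557). At DN4 all 5 Ldb1-KO libraries were above all 4 wild-type ones, with a log2 difference of 0.76 that did not pass the test (95% interval -0.11 to 1.63, adjusted p = 0.171) except in a fit of the 2 groups alone (adjusted p = 0.0171). The gene lies on chromosome 16, 30064384 to 30067796, plus strand.

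Dtx1, on chromosome 5, 120680202 to 120711927, minus strand, encodes Deltex, a ubiquitin ligase that is both a Notch target and a regulator of Notch. At DN4 it was higher in both transgenic groups than in wild type, and at DN2/3 no difference passed the test. It had 69.5, 87.8, 66.8, 163 and 114 CPM in Ldb1-KO DN4, 130, 75.3, 116, 51.4 and 70.2 CPM in Lmo2tg DN4, against 18.6, 15.7, 28.3 and 18.3 CPM in wild type DN4. Every transgenic DN4 library was above every wild-type one. In DN2/3 cells it had 113, 243, 120, 322 and 307 CPM in Ldb1-KO, 168, 154, 168, 85.3 and 81.0 CPM in Lmo2tg, against 144, 118, 139 and 150 CPM in wild type. At this stage the wild-type libraries lay within the spread of both transgenic groups. Ldb1-KO over wild type at DN4 was 2.31 (SE 0.35, adjusted p = 5.04e-05) and Lmo2tg over wild type 2.13 (SE 0.35, adjusted p = 2.73e-05), while at DN2/3 they were 0.68 (adjusted p = 0.194) and -0.07 (adjusted p = 0.907). The effect of Lmo2tg over wild type differed between stages by 2.19 (SE 0.47, adjusted p = 0.0024). DN4 against DN2/3 was -1.14 in Ldb1-KO (SE 0.31, adjusted p = 0.00732), -0.57 in Lmo2tg (SE 0.31, adjusted p = 0.222) and -2.76 in wild type (SE 0.37, adjusted p = 2.81e-06). With the replicate number as a block within genotype, the Lmo2tg difference between stages was called (log2 -0.58, edgeR adjusted p = 0.00322). Ldb1-KO over Lmo2tg at DN2/3 was 0.75 (95% interval 0.12 to 1.38) and missed the threshold (adjusted p = 0.103), though it was called without Ldb1-KO DN2/3 replicate 1 (log2 0.92, adjusted p = 0.0435).

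Heyl, on chromosome 4, 123233556 to 123249875, plus strand, encodes a hairy-related repressor of the same family as Hes1. It rose in both transgenic groups over wild type and fell in Ldb1-KO below Lmo2tg at DN4. It had 2.64, 2.07, 2.22, 3.12 and 1.56 CPM in Ldb1-KO DN4, 8.67, 4.42, 5.30, 5.86 and 3.77 CPM in Lmo2tg DN4, against 0.733, 0.715, 1.17 and 0.710 CPM in wild type DN4, where the level rests on 50 to 74 counts per library. The 3 genotypes did not overlap at DN4 and stood in the order Lmo2tg, Ldb1-KO, wild type. In DN2/3 cells it had 10.2, 6.19, 5.69, 10.98 and 8.13 CPM in Ldb1-KO, 14.8, 9.41, 13.2, 10.5 and 7.92 CPM in Lmo2tg, against 4.33, 4.19, 4.12 and 3.21 CPM in wild type. There the transgenic groups overlapped each other and lay above wild type. Ldb1-KO over Lmo2tg was -1.27 at DN4 (SE 0.24, adjusted p = 0.00076) and -0.44 at DN2/3 (95% interval -0.93 to 0.04, adjusted p = 0.223). Lmo2tg over wild type was 2.75 at DN4 (SE 0.28, adjusted p = 3.95e-08) and 1.498 at DN2/3 (SE 0.26, adjusted p = 7.96e-05), and this effect differed between stages by 1.25 (SE 0.36, adjusted p = 0.0156). Ldb1-KO over wild type was 1.48 at DN4 (adjusted p = 0.000397) and 1.05 at DN2/3 (adjusted p = 0.00888).

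Trib2, a pseudokinase and known Notch target in T-cell leukemia, was the only member higher at DN4 than at DN2/3. It was also the only member called between Ldb1-KO and Lmo2tg at both stages. The gene lies on chromosome 12, 15791727 to 15816922, minus strand. It had 75.5, 86.7, 77.6, 67.9 and 74.7 CPM in Ldb1-KO DN4, 208, 116, 197, 74.4 and 129 CPM in Lmo2tg DN4, against 32.7, 35.6, 29.8 and 34.1 CPM in wild type DN4. The levels at DN2/3 were 45.2, 28.7, 44.2, 44.8 and 51.0 CPM in Ldb1-KO, 137, 88.9, 82.6, 68.1 and 77.5 CPM in Lmo2tg, against 12.1, 14.8, 14.0 and 15.2 CPM in wild type. The order was again Lmo2tg, Ldb1-KO, wild type at both stages, without overlap at DN2/3, and at DN4 only Lmo2tg replicate 4 fell within the Ldb1-KO libraries. Ldb1-KO over Lmo2tg was -0.92 at DN4 (SE 0.21, adjusted p = 0.00306) and -1.09 at DN2/3 (SE 0.21, adjusted p = 0.000427). In a fit of the 2 DN4 groups alone the first of these was at an adjusted p of 0.051. Lmo2tg over wild type was 2.13 at DN4 (SE 0.23, adjusted p = 1.03e-07) and 2.70 at DN2/3 (SE 0.24, adjusted p = 2.81e-09), and Ldb1-KO over wild type 1.21 (adjusted p = 0.000445) and 1.61 (adjusted p = 2.31e-05). DN4 against DN2/3 was 0.84 in Ldb1-KO (adjusted p = 0.00336), 0.67 in Lmo2tg (adjusted p = 0.0255) and 1.24 in wild type (adjusted p = 0.000157). The Lmo2tg rise between stages did not pass without Lmo2tg DN2/3 replicate 3, 4 or 5 (adjusted p = 0.0611, 0.0745 and 0.0694) or Lmo2tg DN4 replicate 1 or 3 (adjusted p = 0.106 and 0.0926), nor without the 2 libraries high in double-positive markers (log2 0.51, adjusted p = 0.112).

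Nrarp, a feedback inhibitor that binds the Notch complex, was the member with no call in any of the 11 contrasts of the fit of all samples without a block. With the replicate number as a block within genotype it was called lower at DN4 than at DN2/3 in Ldb1-KO (log2 -0.68, adjusted p = 3.19e-05) and in Lmo2tg (log2 -0.79, adjusted p = 2.8e-05). It had 8.12, 6.41, 7.89, 7.01 and 8.53 CPM in Ldb1-KO DN4, 3.31, 12.5, 5.01, 12.4 and 4.80 CPM in Lmo2tg DN4, against 10.3, 9.64, 10.7 and 8.29 CPM in wild type DN4. The levels at DN2/3 were 11.3, 11.6, 12.02, 11.3 and 14.5 CPM in Ldb1-KO, 6.99, 19.5, 10.4, 20.4 and 6.62 CPM in Lmo2tg, against 12.7, 10.4, 11.8 and 9.75 CPM in wild type. Lmo2tg replicates 2 and 4, the highest in Hes1, were also the highest in Nrarp at both stages. DN4 against DN2/3 was -0.68 in Ldb1-KO (95% interval -1.31 to -0.04), where the libraries did not overlap, -0.75 in Lmo2tg (95% interval -1.38 to -0.11) and -0.20 in wild type (95% interval -0.90 to 0.51), with adjusted p of 0.104, 0.104 and 0.669. The Lmo2tg difference passed without Lmo2tg DN4 replicate 2 (adjusted p = 0.0375) or 4 (0.0239), and in fits of 2 groups alone Nrarp passed for the Ldb1-KO stages (0.00166) and for Ldb1-KO over wild type at DN4 (log2 -0.36, adjusted p = 0.0432). The gene lies on chromosome 2, 25180758 to 25183339, plus strand. Its promoter, chr2:25180508-25180757, plus strand, is shown as that of the member with no call in the fit of all samples without a block.
Nrarp: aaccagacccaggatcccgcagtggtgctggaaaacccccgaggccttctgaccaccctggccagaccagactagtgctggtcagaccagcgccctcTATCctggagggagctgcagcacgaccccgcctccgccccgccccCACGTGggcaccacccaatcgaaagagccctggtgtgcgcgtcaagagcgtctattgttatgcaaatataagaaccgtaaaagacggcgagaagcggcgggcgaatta
It holds 1 CANNTG, 1 GATA, which is on the other strand and so is printed TATC, and no TGGGAA. Exon bases of Notch1, Notch3 and Nrarp are also covered by genes on the opposite strand that are not in the count table, and the sources used here do not tell whether counting used strand, so these reads cannot be told apart.

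**Figure D2:**
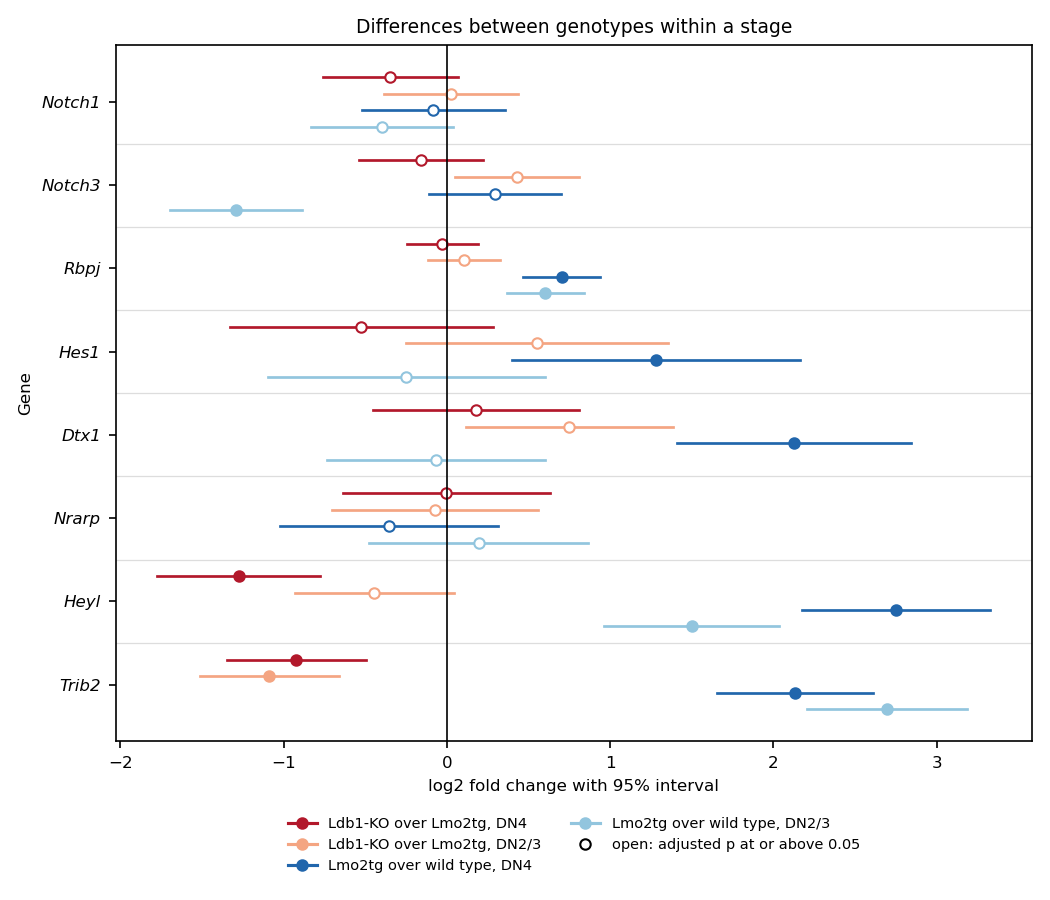
Log2 fold change (points) with its 95% interval (lines) of each member for Ldb1-KO over Lmo2tg and Lmo2tg over wild type at each stage. Filled points have an adjusted p below 0.05, and Trib2 and Heyl are the members with filled points on both sides of 0, higher in Lmo2tg over wild type and lower in Ldb1-KO over Lmo2tg.

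Counted over the 8 members, Heyl at DN4 and Trib2 at both stages were called lower in Ldb1-KO than in Lmo2tg. Rbpj, Heyl and Trib2 were called higher in both transgenic groups than in wild type at both stages. In Ldb1-KO over Lmo2tg at DN4, 0 of 8 members were called higher and 2 lower (Heyl and Trib2), against 5.85% and 8.71% of all genes tested, with medians of -0.25 over the members and -0.02 over all genes. At DN2/3, 0 were higher and 1 lower (Trib2), against 8.87% and 7.22% of all genes, with medians of 0.07 and -0.01. In Lmo2tg over wild type at DN4, 5 members were higher (Heyl, Trib2, Dtx1, Hes1 and Rbpj) and 0 lower, against 28.9% and 23.5% of all genes, and the median of the 8 members was 0.99 against 0.07 over all genes. At DN2/3, 3 were higher (Trib2, Heyl and Rbpj) and 1 lower (Notch3), against 15.1% and 14.4% of all genes, with medians of 0.06 and 0.01. Ldb1-KO over wild type called 4 members higher (Dtx1, Heyl, Trib2 and Rbpj) and 0 lower at DN4, against 18.2% and 14.4%, with medians of 0.72 and 0.03. At DN2/3 it called 3 higher (Trib2, Heyl and Rbpj) and 1 lower (Notch3), against 6.98% and 2.58%, with medians of 0.49 and -0.01. Whether the counts of members differ from these shares of all genes was not tested. These comparisons share libraries, so their values are given side by side and not as separate evidence. Without the 2 DN4 libraries high in double-positive markers, the counts at DN4 were 2, 5 and 4 members in Ldb1-KO over Lmo2tg, Lmo2tg over wild type and Ldb1-KO over wild type. That fit called 10.1%, 45.6% and 27.2% of all genes in these contrasts. The wild-type libraries carry another kind of library name than the transgenic ones, so that library series and the difference from wild type cannot be told apart.

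Between stages, both receptors, Hes1, Dtx1 and Heyl were lower at DN4 in Ldb1-KO and in wild type, and Trib2 was higher in all 3 genotypes. DN4 over DN2/3 called 1 member higher and 5 lower in Ldb1-KO, against 12.3% and 15.8% of all genes, 1 higher and 4 lower in Lmo2tg, against 8.32% and 7.04%, and 1 higher and 5 lower in wild type, against 21.1% and 24.8%. The medians of the 8 members were -1.16, -0.78 and -1.69 in Ldb1-KO, Lmo2tg and wild type, against medians over all genes of -0.02, 0 and -0.06. Hes1, Dtx1, Heyl, Notch3 and Notch1 made up the 5 lower members in Ldb1-KO and in wild type, and Dtx1 was the one not called in Lmo2tg without the replicate block given below. In a fit of the 2 Lmo2tg groups alone 1 member passed (Notch3), against 2.47% of all genes in that fit. Without the 2 libraries high in double-positive markers, 6 members passed in Ldb1-KO and 4 in Lmo2tg. That fit called 24.5% and 10.8% of all genes.

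**Figure D3:**
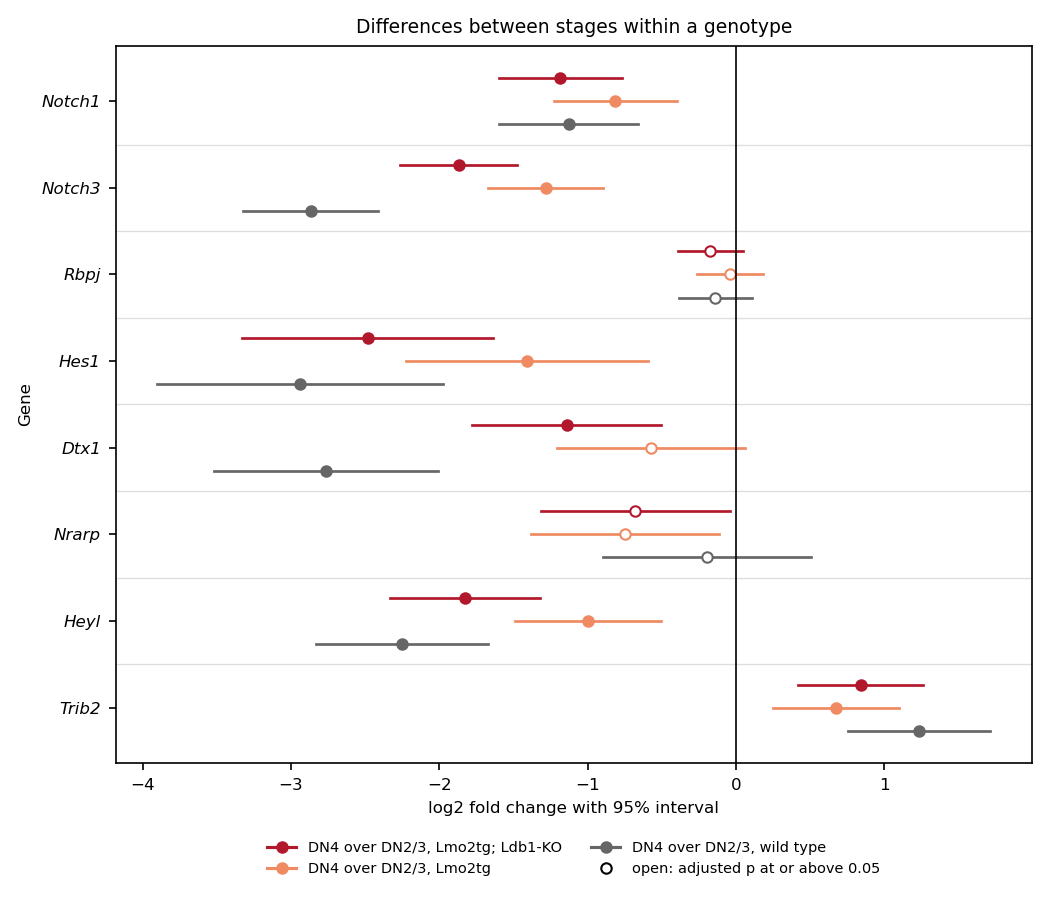
Log2 fold change of DN4 over DN2/3 (points) with its 95% interval (lines) of each member in Ldb1-KO, Lmo2tg and wild type. Filled points have an adjusted p below 0.05. For every member except Nrarp, and so also for Trib2, which rises, the Lmo2tg points lie nearest to 0 of the 3 genotypes.

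Whether the stage difference itself varied with genotype was tested as a difference of differences. Between Lmo2tg and wild type, 3 members passed with a less negative stage difference in Lmo2tg (Dtx1, Notch3 and Heyl) and 0 the other way, against 14.7% and 11% of all genes. Hes1 was at 1.53 (SE 0.59) with an adjusted p of 0.0564. It passed with DESeq2 (adjusted p = 0.0314) and without the 2 libraries high in double-positive markers (0.0247). The latter made the count 4, against 17.1% of all genes in that fit. Between Ldb1-KO and Lmo2tg, edgeR without the replicate block given below called 0 members in either direction, against 0.132% and 1.22% of all genes. DESeq2 called 0 as well, against 2.71% of all genes, and the count without the 2 libraries was 0, against 0.658%. In the edgeR fit of all samples, 2 members (Heyl and Notch3) had an unadjusted p under 0.05. The values of the members ran from -1.07 for Hes1 (95% interval -2.21 to 0.07) to 0.17 for Trib2 (95% interval -0.43 to 0.76).

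The stage results were also fitted with the replicate number within a genotype as a block, since same-numbered libraries deviated together. With this block, 8 members passed for DN4 over DN2/3 in Ldb1-KO, 7 in Lmo2tg and 6 in wild type, against 48.2%, 38.8% and 62.1% of all genes. Nrarp was called in Ldb1-KO and in Lmo2tg, as given above, and not in wild type (log2 -0.20, adjusted p = 0.12). Rbpj was added in Ldb1-KO (log2 -0.18, adjusted p = 0.0304) and Dtx1 in Lmo2tg (log2 -0.58, adjusted p = 0.00322). The difference between Lmo2tg and wild type then held 6 members, against 49.4% of all genes, with Hes1 (1.44, adjusted p = 0.00132), Nrarp (-0.60, adjusted p = 0.00281) and Trib2 (-0.62, adjusted p = 0.0277) added. The difference between Ldb1-KO and Lmo2tg held 2, against 13.5% of all genes: Hes1 (-1.02, adjusted p = 0.0321) and Heyl (-0.78, adjusted p = 0.0219).

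**Figure D4:**
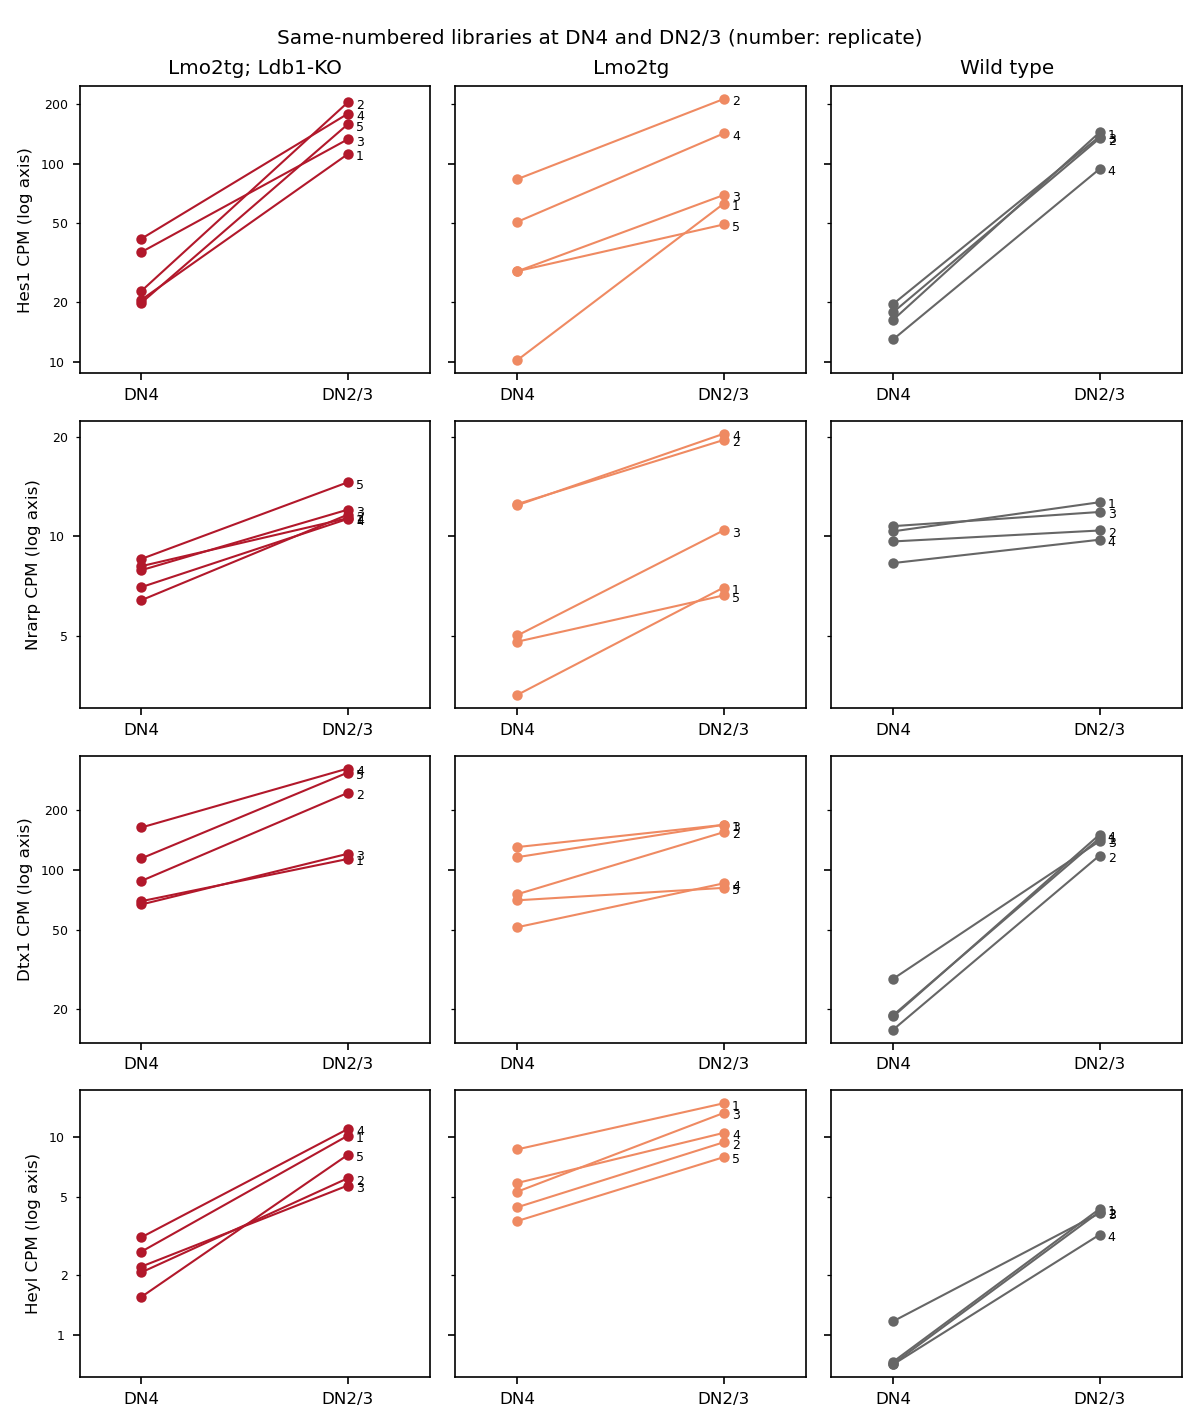
CPM of Hes1, Nrarp, Dtx1 and Heyl on log axes at DN4 and DN2/3, with lines joining the libraries of the same replicate number in Ldb1-KO, Lmo2tg and wild type. Numbers beside the points are replicate numbers, and Lmo2tg replicates 2 and 4 are the top lines for Hes1 and Nrarp at both stages.

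Around the 8 members, the pathway was read through 8 lists of other Notch genes grouped by role. The share of all genes called, to set beside each list's counts, was 5.85% higher and 8.71% lower in Ldb1-KO over Lmo2tg at DN4 and 8.87% higher and 7.22% lower at DN2/3. For Lmo2tg over wild type it was 28.9% higher and 23.5% lower at DN4, and 15.1% higher and 14.4% lower at DN2/3. Among 9 other receptors and ligands, the receptor gene Notch2 was lowest in Lmo2tg at both stages. It had 42.4 ± 4.94, 29.3 ± 5.52 and 54.0 ± 5.65 CPM in Ldb1-KO, Lmo2tg and wild type at DN4 (SD, n = 5, 5 and 4), and 50.1 ± 7.34, 25.1 ± 4.60 and 64.2 ± 5.09 CPM at DN2/3. At DN2/3 Notch2 was higher in Ldb1-KO than in Lmo2tg by 1.00 (SE 0.13, adjusted p = 5.31e-06) and lower in Lmo2tg than in wild type by a log2 of -1.35 (SE 0.14, adjusted p = 4.05e-08). At DN4 these were 0.54 (adjusted p = 0.0069, and 0.0613 in a fit of the 2 groups alone) and -0.88 (adjusted p = 1.78e-05). Jag2, a ligand, was at 7.98 ± 2.36 CPM or above in every group except wild type DN4 (5.71 ± 0.622 CPM), and Dll1, Dll3 and Dll4, the Delta ligands, averaged at most 0.535 CPM in any group. In Ldb1-KO over Lmo2tg the list had 1 gene higher and 2 lower at each stage, and in Lmo2tg over wild type 5 higher and 1 lower at DN4 and 1 higher and 2 lower at DN2/3. Of these, the non-canonical ligand gene Dlk2 was not called in Ldb1-KO over Lmo2tg at DN2/3 without Lmo2tg DN2/3 replicate 4 (adjusted p = 0.0622) or Ldb1-KO DN2/3 replicate 3 (0.0599), nor in Lmo2tg over wild type without wild type DN2/3 replicate 2 (0.0592). At DN4 Dlk1 was not called in Ldb1-KO over Lmo2tg without Lmo2tg DN4 replicate 5 (0.0869). The ligand genes Jag1, Dlk2 and Dlk1 averaged at most 0.738, 0.8025 and 2.485 CPM in any group. With the Delta ligands they are most of this list, so its counts and medians rest largely on transcripts at low levels. List medians of the log2 fold change were -0.52 and -0.04 in Ldb1-KO over Lmo2tg at DN4 and DN2/3, and 1.75 and 0.68 in Lmo2tg over wild type. Over all genes tested these medians were -0.02, -0.01, 0.07 and 0.01, the values to set beside those of the other lists, which follow in the same order.

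Before and during signalling the receptor is glycosylated and cut in steps. Of 6 genes for glycosylation and furin cleavage, 0 were higher and 1 lower in Ldb1-KO over Lmo2tg at DN4 and 0 changed at DN2/3. In Lmo2tg over wild type, 2 were higher and 0 lower at DN4, led by Lfng, a fringe glycosyltransferase, with 25.2 ± 18.6 CPM in Lmo2tg, against 7.63 ± 1.3 CPM in wild type (log2 1.72, adjusted p = 0.000311). The other was Furin, a protease that cuts the receptor on its way to the surface, with 50.4 ± 7.41 CPM in Lmo2tg, against 35.7 ± 2.33 CPM in wild type (log2 0.50, adjusted p = 0.0306). It was not called without wild type DN4 replicate 2, 3 or 4 (adjusted p = 0.0559, 0.0852 and 0.0546) or without Lmo2tg DN4 replicate 5 (0.0854). At DN2/3 1 was higher and 1 lower, and the lower one, Pofut1, lost its call on leaving out Lmo2tg DN2/3 replicate 2, 3 or 4 (adjusted p = 0.0724, 0.0571 and 0.0537) or replicate 1 of wild type DN2/3 (0.0692). The higher one, Mfng, was not called without wild type DN2/3 replicate 2 (0.0723). The medians were -0.11, -0.09, 0.12 and -0.06. Of 9 metalloprotease and gamma-secretase genes, 0 were higher and 1 lower in Ldb1-KO over Lmo2tg at DN4, and 1 higher and 0 lower at DN2/3. In Lmo2tg over wild type 6 were higher and 0 lower at DN4, and 1 higher and 2 lower at DN2/3. Without the 2 libraries high in double-positive markers 3 were called at DN4, against 45.6% of all genes in that fit. Without wild type DN4 replicate 1 or 3, or Lmo2tg DN4 replicate 1, the DN4 count of this list was likewise 3. Here the medians were 0, 0.06, 0.43 and -0.06. The gamma-secretase subunit Aph1a was at 64.0 ± 12 CPM in Lmo2tg, against 36.8 ± 1.75 CPM in wild type at DN4 (log2 0.80, adjusted p = 8.47e-06), and at 73.8 ± 5.76 CPM in Lmo2tg, against 39.9 ± 3.16 CPM in wild type at DN2/3 (log2 0.89, adjusted p = 2.23e-06).

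Of 14 ubiquitin ligases and endocytic regulators, 0 changed in Ldb1-KO over Lmo2tg at DN4 and 3 were higher and 0 lower at DN2/3. In Lmo2tg over wild type 3 were higher and 1 lower at DN4, and 0 higher and 5 lower at DN2/3, with medians of -0.08, 0.21, 0.18 and -0.4. The Deltex relative Dtx4 had 18.6 ± 7.48, 4.03 ± 1.88 and 17.4 ± 3.22 CPM in Ldb1-KO, Lmo2tg and wild type at DN2/3, a log2 of 2.21 in Ldb1-KO over Lmo2tg (adjusted p = 2.65e-05) and -2.11 in Lmo2tg over wild type (adjusted p = 3.2e-05). For Dtx1 neither of these contrasts passed the test.

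In the nucleus Rbpj exchanges corepressors for coactivators when the cut receptor arrives. Of 8 coactivators, 0 were higher and 4 lower in Ldb1-KO over Lmo2tg at DN4 and 0 higher and 1 lower at DN2/3, while in Lmo2tg over wild type 6 were higher and 1 lower at DN4 and 1 higher and 1 lower at DN2/3. Over all genes 8.71% were lower in Ldb1-KO over Lmo2tg and 28.9% higher in Lmo2tg over wild type at DN4. The lower one at DN2/3 in Lmo2tg over wild type, Maml3, lost its call on leaving out Lmo2tg DN2/3 replicate 2 (adjusted p = 0.0722) or replicate 2 of wild type DN2/3 (0.0514). Coactivator medians were -0.43, -0.02, 0.7 and -0.07. The acetyltransferase gene Ep300 was at 146 ± 8.35 CPM in Ldb1-KO, 215 ± 34.2 CPM in Lmo2tg, and in wild type 122 ± 14.7 CPM at DN4, a log2 of -0.56 in Ldb1-KO over Lmo2tg (adjusted p = 0.000332) and 0.82 in Lmo2tg over wild type (adjusted p = 1.32e-06). Its relative Crebbp showed -0.49 (adjusted p = 0.000718) and 0.77 (adjusted p = 1.59e-06). Of 16 corepressors, 0 were higher and 2 lower in Ldb1-KO over Lmo2tg at DN4 and 2 higher and 0 lower at DN2/3. In Lmo2tg over wild type 7 were higher and 3 lower at DN4, and 2 higher and 1 lower at DN2/3, with medians of -0.06, -0.13, 0.03 and 0.17. The all-gene shares in Lmo2tg over wild type were 28.9% higher and 23.5% lower at DN4. Without Lmo2tg DN4 replicate 4, 4 corepressors were called in Ldb1-KO over Lmo2tg at DN4, and without Lmo2tg DN2/3 replicate 5, 5 were called in Lmo2tg over wild type at DN2/3. The Groucho gene Tle4 had 33.4 ± 3.78 CPM in Ldb1-KO, 53.2 ± 10.5 CPM in Lmo2tg, and in wild type 21.3 ± 3.41 CPM at DN4 (log2 -0.67, adjusted p = 0.000494, and 1.32, adjusted p = 3.77e-08).

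Other target genes did not move one way. Of 7 other Hes and Hey genes 4 were tested, with 0 changed in Ldb1-KO over Lmo2tg at either stage, 2 higher and 0 lower in Lmo2tg over wild type at DN4, and 0 at DN2/3, and medians of -0.5, -0.08, 1.11 and 0.37. Hey1, a repressor related to Heyl, was at 2.63 ± 1.18 CPM in Lmo2tg, against 0.377 ± 0.242 CPM in wild type at DN4 (log2 2.80, adjusted p = 0.000164). The other called gene, Hey2, had 0.225 ± 0.196 CPM in Lmo2tg, against 0.0356 ± 0.0557 CPM in wild type (log2 2.59, adjusted p = 0.0325). It was not called without wild type DN4 replicate 2, 3 or 4 (adjusted p = 0.0883, 0.0927 and 0.0784) or without Lmo2tg DN4 replicate 3 or 4 (0.074 and 0.0717). Of 18 other T-lineage Notch targets, 1 was higher and 5 lower in Ldb1-KO over Lmo2tg at DN4, and 3 higher and 5 lower at DN2/3. Without the 2 libraries high in double-positive markers 3 were called at DN4, against 10.1% of all genes in that fit. Against wild type, Lmo2tg had 8 higher and 3 lower at DN4, and 4 higher and 5 lower at DN2/3. All-gene shares were 5.85% higher and 8.71% lower, and 8.87% and 7.22%, in Ldb1-KO over Lmo2tg at DN4 and DN2/3, and 28.9% and 23.5%, and 15.1% and 14.4%, in Lmo2tg over wild type. In Ldb1-KO over Lmo2tg, 3 were called at DN4 without Ldb1-KO DN4 replicate 2, and at DN2/3 5 without Lmo2tg DN2/3 replicate 5 and 4 without Ldb1-KO DN2/3 replicate 2. The medians of these targets were -0.21, -0.03, 0.41 and -0.07. At DN2/3 the cell cycle inhibitor gene Cdkn1a had 30.6 ± 8.40, 2.77 ± 1.64 and 58.8 ± 9.17 CPM in Ldb1-KO, Lmo2tg and wild type, and Ptcra, the pre-T-cell-receptor alpha chain, 96.1 ± 33.5, 31.7 ± 8.98 and 177 ± 14.7 CPM. Both were lower in Lmo2tg than in wild type (log2 -4.41, adjusted p = 1.16e-08, and -2.48, adjusted p = 2.25e-07) and higher in Ldb1-KO than in Lmo2tg (log2 3.47, adjusted p = 6.01e-07, and 1.60, adjusted p = 0.000107). At DN4 Myc was lower in Lmo2tg, with 220 ± 94.0 CPM against 452 ± 48.5 CPM in wild type (log2 -1.04, adjusted p = 8.4e-05). Il7r, the interleukin 7 receptor, was lower in Ldb1-KO, with 30.4 ± 9.5 CPM against 108 ± 71.5 CPM in Lmo2tg (log2 -1.82, adjusted p = 0.000681), and it also stands in the mature T list, whose summed levels in these groups are given above.

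**Figure D5:**
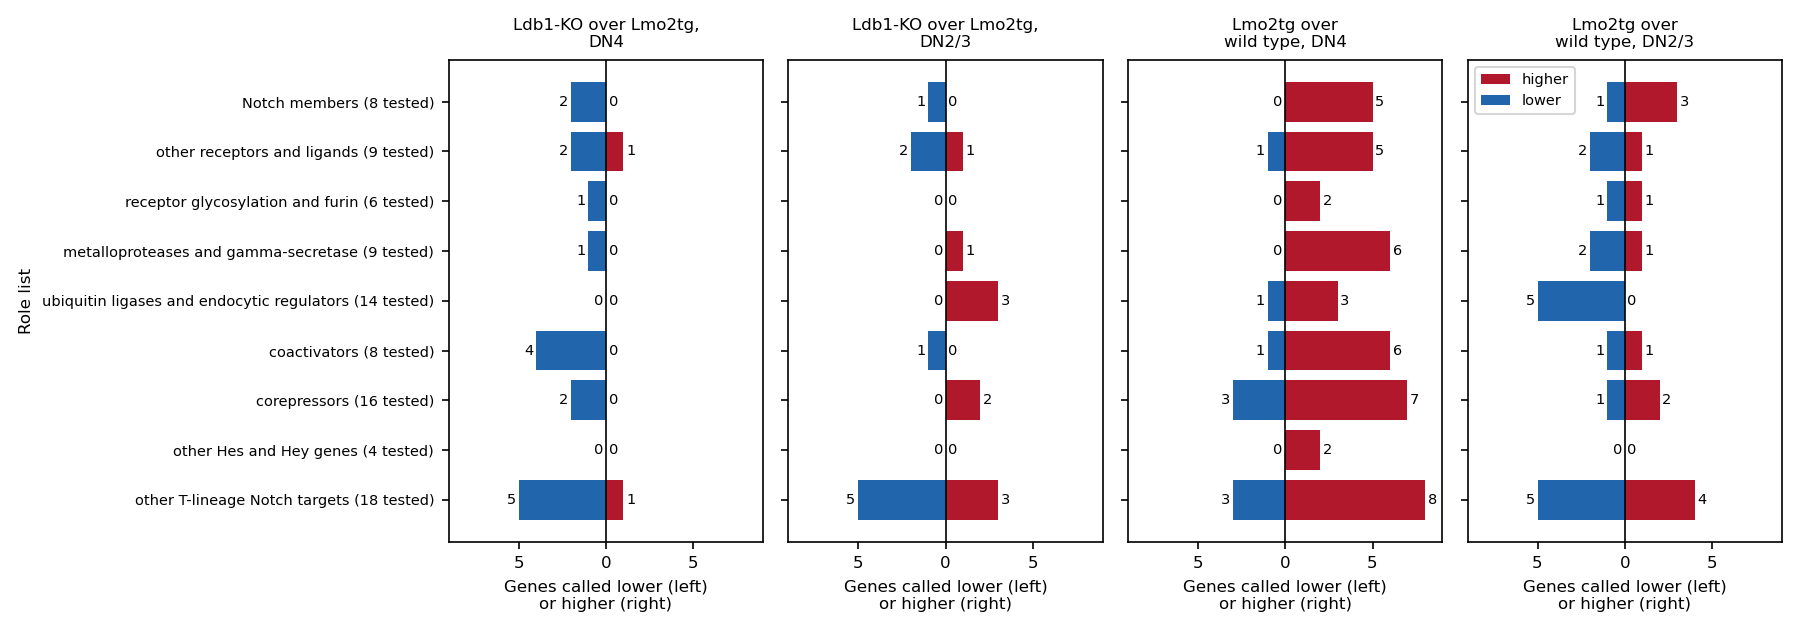
Number of genes called lower (left) and higher (right) in the members and in 8 lists of other Notch pathway genes, for Ldb1-KO over Lmo2tg and Lmo2tg over wild type at each stage. The 8 coactivators have 4 lower genes in Ldb1-KO over Lmo2tg and 6 higher genes in Lmo2tg over wild type at DN4. Over all genes tested, 8.71% were lower and 28.9% higher in these contrasts.

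The genes closest in pattern were sought by the root mean square difference of log2 CPM over the 28 libraries, each gene centred on its own mean, among 10115 genes with at least 5 CPM in a group. The 3 nearest were Atp6ap2 (0.125), Tfb2m and Yipf5 for Rbpj, Hook2 (0.21), Trappc6a and Crtc1 for Notch1, and Repin1 (0.304), Capn5 and Firre for Notch3. For the targets they were Mycn (0.563), Tox3 and Bhlhe40 for Hes1, Smad7 (0.545), Arl4c and Arid5a for Dtx1, and Dpp4 (0.545), Pdzd2 and Kit for Heyl. Nrarp was nearest to Pla2g12a (0.307), Dyrk3 and Tfap4, and Trib2 to Pou2af1 (0.382), Cdo1 and Slamf1. No member was among the 3 nearest genes of another member.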

How the data were processed

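RNA of 28 thymocyte samples was measured by RNA sequencing. Per the labels' protocols, libraries were made with a TruSeq RNA V2 kit and read as pairs, and the submitters' processing notes name STAR 2.5.2a, featureCounts 1.4.6-p3 and mm10. The authors deposited raw counts per gene symbol in 1 table, and 0 columns lacked a sample. The sources used here name neither the annotation nor the strand setting. Of low counts (1 to 10), most were even, so that both mates of a pair appear to be counted. No pair of replicates was a copy, as chi-square over degrees of freedom was at least 28.6 in 52 pairs.

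The members and lists were chosen with earlier results of these data known. The fit used edgeR 4.0.16 under R 4.3.3 (TMM, filterByExpr by group, 14371 genes kept, robust quasi-likelihood fit of 6 groups, two-sided F-test). Adjusted p-values are Benjamini-Hochberg values over all genes tested. SE is the log2 fold change divided by the root of F. The fit was tested on simulated data. Alternatives were DESeq2 1.42.0, RLE scaling, library totals, no filter, the compared groups only, replicate blocks, each library left out and, chosen after seeing the data, 2 libraries left out together.

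All 8 members are named in every contrast. In each role list, the 2 called genes with the smallest adjusted p, or the most abundant gene where none was called, were eligible in 4 contrasts, and those given in the text are among them, except that Jag2, Dll1, Dll3 and Dll4 were chosen after their values were seen. Tle5 stands in the table as Aes. Positions come from GENCODE M21 and promoters from RefSeq (GRCm38.p6). Of the symbols, 23376 matched a GENCODE name. Same-numbered DN4 and DN2/3 libraries of a genotype deviated together from their group means, with correlations over all genes tested of 0.29 to 0.53 in Ldb1-KO, 0.51 to 0.65 in Lmo2tg and 0.15 to 0.33 in wild type. Every one was above 0.1, so the numbers were taken to pair the stages. Across genotypes they ran from -0.18 to 0.34, and between Ldb1-KO and Lmo2tg from -0.08 to 0.34. Not every one was above 0.1, so the numbers were not taken to pair genotypes. The column names of the transgenic libraries run in sets by replicate number, and their replicates 4 and 5 had lower totals (28.1 to 44.9 M) than replicates 1 to 3 (45.8 to 74.7 M). Whether each set was prepared together was not tested. Groups follow the sample labels, with 5 Ldb1-KO libraries a stage, although the series design text counts 4.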

Additional observations from a re-analysis of the deposited data

Results flagged for a closer look

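Of 48 sets of libraries (8 members in 6 groups), 3 held a library far from the rest of its group by Dixon's gap test, which chance gives in about 1 of 20 groups. Notch1 was at 1144 CPM in Ldb1-KO DN4 replicate 4, against 542 to 640 CPM in the other 4. Nrarp was at 14.5 CPM in Ldb1-KO DN2/3 replicate 5, against 11.3 to 12.02 CPM in the others. Heyl was at 1.17 CPM in wild type DN4 replicate 3, against 0.710 to 0.733 CPM in the others. The effect of Lmo2tg over wild type differed between the stages, by a test of the difference itself, for Dtx1 (2.19), Notch3 (1.58) and Heyl (1.25, all on the log2 scale, edgeR adjusted p = 0.0024, 0.000567 and 0.0156).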

How the results depend on the processing

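Of 88 results on single members, the alternatives gave 1600 values, of which 1524 kept the direction and the side of the threshold, 14 lost the call and 25 gained one. The other 37 had the opposite sign, and 0 of these were called in either fit. The cause of the changes was not tested. Counts of called members moved by over 1.5 times in fits of the compared groups alone, which use fewer samples, to 1 for Ldb1-KO over Lmo2tg at DN4 (2 in the fit of all samples) and to 1 for DN4 over DN2/3 in Lmo2tg (5). These fits called 5.2% and 2.47% of all genes. With the replicate block within genotype, 6 members passed for the stage difference in Lmo2tg against wild type (3 without the block) and 2 for that in Ldb1-KO against Lmo2tg (0 without it). Leaving out each library gave 1 to 2 called members in Ldb1-KO over Lmo2tg at DN2/3. A block with the number over all samples added Notch1 in Ldb1-KO over wild type at DN4 (edgeR adjusted p = 0.0321) and Hes1 in the stage difference of Lmo2tg against wild type (0.0246) and changed no other member call.

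Opposite signs, all log2 fold changes near 0, were as follows. Without the 2 libraries high in double-positive markers, Notch1 in Lmo2tg over wild type at DN4 was 0.048, Rbpj between the Lmo2tg stages 0.002 and Nrarp in the stage difference of Ldb1-KO against Lmo2tg -0.067. With the number block, Ldb1-KO over Lmo2tg was -0.006 for Notch1 and 0.024 for Nrarp at DN2/3 and 0.110 for Nrarp at DN4. With library totals Nrarp was 0.013 at DN2/3 and 0.048 at DN4 in that contrast, and with no filter 0.008 at DN4. Leaving out each library, Lmo2tg over wild type ran from -0.171 to 0.064 for Dtx1, from -0.034 to 0.358 for Nrarp and from -0.076 to 0.030 for Hes6 at DN2/3, and from -0.247 to 0.048 for Notch1 at DN4. Ldb1-KO over Lmo2tg at DN2/3 ran from -0.111 to 0.121 for Notch1 and from -0.235 to 0.156 for Nrarp. At DN4 it ran from -0.333 to 0.009 for Notch3, -0.076 to 0.078 for Rbpj, -0.067 to 0.357 for Dtx1, -0.196 to 0.252 for Nrarp and -0.245 to 0.028 for Hes6. Notch3 in Ldb1-KO over wild type at DN4 ran from -0.040 to 0.219 and Rbpj between the Lmo2tg stages from -0.134 to 0.003. The stage difference of Ldb1-KO against Lmo2tg ran from -0.160 to 0.325 for Nrarp and from -0.030 to 0.333 for Trib2.

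Over all genes, the compared groups alone called 681 genes (2092 with all samples) in Ldb1-KO over Lmo2tg at DN4, 4947 (7532) in Lmo2tg over wild type at DN4, 3037 (1374) in Ldb1-KO over wild type at DN2/3, 321 (2208) between the Lmo2tg stages, and 2146 (3684) and 85 (195) for the stage differences against wild type and against Lmo2tg. The within-genotype block called 6934 (4039) between the Ldb1-KO stages, 5569 (2208) between the Lmo2tg stages, and 7106 (3684) and 1933 (195) for the stage differences. The number block called 2449 (1374) in Ldb1-KO over wild type at DN2/3. For the stage difference of Ldb1-KO against Lmo2tg, DESeq2 called 390 and the fit without the 2 libraries 94 (195), and without them the difference of Lmo2tg against wild type had 2446 (3684). Library totals moved the median of all genes to -0.194 (-0.065 with TMM) between the wild-type stages and to 0.204 (0.08) in the stage difference of Lmo2tg against wild type. They moved the share of calls that were higher to 65.1% (55.1%) in Ldb1-KO over Lmo2tg and 40.9% (51.3%) in Lmo2tg over wild type at DN2/3, 33.9% (45.9%) between the wild-type stages and 71.8% (57.2%) in that stage difference. Of 876 values on 55 results of other pathway genes, 27 lost the call, 2 gained one and 2 had the opposite sign, and 55 of 512 role list counts moved by over 1.5 times. Heyl rests on the fewest counts of any member, down to 50 in a DN4 library.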
